A study of Mus musculus with 8 samples.

Results

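The genes described here are the enzymes that build cholesterol from acetyl-CoA and the proteins that set their rate through SREBP2, a membrane-bound transcription factor of the endoplasmic reticulum. The 26 members were listed by name, step by step along the pathway, and were read from the probes whose accession is a RefSeq transcript of the gene, with the brightest probe standing for the gene. All 26 had a probe and passed the filter on low signals, among 26123 genes tested in all. They were measured in peritoneal macrophages of mice, phagocytic cells of the abdominal cavity, cultured in medium with 20% foetal bovine serum. The cells received LECT2 (leukocyte cell-derived chemotaxin 2, a protein that liver cells secrete) at 0.5 µg/ml (the low dose here) or 5 µg/ml (the high dose), or 0 µg/ml (the control), for 3.5 h or 48 h. Each of the 8 arrays carried RNA of LECT2-treated cells in one dye (Cy3) and of untreated cells of that time in the other (Cy5), and each of the 4 combinations of dose and time had 2 arrays, from independent experiments on different mice. The strain, sex and age of the mice and the purity of the cells are not given in the sources used here.

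Cells make cholesterol from acetyl-CoA by way of mevalonate, isoprenoids, squalene and lanosterol. When the endoplasmic reticulum is poor in sterol, the escort protein SCAP carries SREBP2 to the Golgi apparatus, where it is cut and set free to switch on almost every enzyme of the route. When sterol is plentiful, INSIG proteins hold SCAP back, and oxysterols such as 25-hydroxycholesterol strengthen that hold. Macrophages also take up, esterify and export cholesterol, and some sterols of the route act on their inflammatory genes.

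Many genes of this route carry in their promoters the sterol regulatory element, to which SREBP2 binds, and the box of its partner NF-Y. Promoter sequences (250 bases before to 50 bases after the transcription start, from RefSeq on GRCm38.p6) were held for 22 of the 26 members. The letters TCACNCCAC of the sterol regulatory element and the letters CCAAT of the NF-Y box, were searched on both strands, and none of the matches shown overlap. The NF-Y box was found in 19 of the 22 members (86.4%), counting a gene when any of its listed promoters held it, against 41.1% of the 27025 genes in the reference. At least 2 NF-Y boxes were found in 12 of the 22, against 13.3% of all genes, and at least 3 in 7, against 3.88%. The stricter letters of the sterol regulatory element were found in 1 of the 22, Hmgcs1, against 1.44% of all genes. These counts describe letters and not binding. The promoters of 4 members are shown because Hmgcs1 alone held both motifs, and because Idi1, Nsdhl and Insig1 were among the members lower with the high dose at 48 h and hold different numbers of boxes. They lie at chr13:119690101-119690400 (plus strand) for Hmgcs1, chr13:8885356-8885655 (plus) for Idi1, chrX:72918271-72918570 (plus) for Nsdhl and chr5:28071162-28071461 (plus) for Insig1. Capitals mark every match, 5′ to 3′ along the gene's strand, so that CCAAT on the opposite strand reads ATTGG and the 9-base match in Hmgcs1 is the sterol regulatory element.
Hmgcs1: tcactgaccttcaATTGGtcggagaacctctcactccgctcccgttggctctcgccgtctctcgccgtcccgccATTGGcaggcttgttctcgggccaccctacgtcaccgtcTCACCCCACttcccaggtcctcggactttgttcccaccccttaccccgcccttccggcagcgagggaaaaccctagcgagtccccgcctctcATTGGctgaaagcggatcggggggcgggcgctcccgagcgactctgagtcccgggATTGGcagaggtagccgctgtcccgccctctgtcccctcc
Idi1: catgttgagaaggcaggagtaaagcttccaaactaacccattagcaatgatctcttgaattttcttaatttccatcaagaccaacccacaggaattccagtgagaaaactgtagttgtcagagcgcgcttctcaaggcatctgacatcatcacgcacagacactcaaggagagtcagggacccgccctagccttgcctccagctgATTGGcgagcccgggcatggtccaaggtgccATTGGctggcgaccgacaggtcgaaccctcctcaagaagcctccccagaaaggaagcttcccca
Nsdhl: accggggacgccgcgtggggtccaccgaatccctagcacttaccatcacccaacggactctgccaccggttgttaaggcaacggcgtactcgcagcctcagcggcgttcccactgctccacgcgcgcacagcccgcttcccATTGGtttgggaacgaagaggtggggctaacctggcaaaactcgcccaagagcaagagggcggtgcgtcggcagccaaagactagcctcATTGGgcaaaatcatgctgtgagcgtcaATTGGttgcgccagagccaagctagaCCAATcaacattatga
Insig1: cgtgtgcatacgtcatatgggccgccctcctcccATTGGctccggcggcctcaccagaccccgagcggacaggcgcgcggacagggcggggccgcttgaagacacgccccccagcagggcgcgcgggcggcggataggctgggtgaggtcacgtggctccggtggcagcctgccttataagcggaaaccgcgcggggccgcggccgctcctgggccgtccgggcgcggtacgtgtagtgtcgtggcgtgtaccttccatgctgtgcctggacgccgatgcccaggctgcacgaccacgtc
The sterol regulatory element of Hmgcs1 begins at -137, counted from the transcription start, between NF-Y boxes at -176 and -45. Nsdhl holds 4 boxes, Idi1 holds 2, and Insig1 holds 1, at -216.

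Values are log2 of LECT2 over control, so that a negative value means less transcript with LECT2. A gene is said to fall or rise only where its adjusted p from limma, corrected over all 26123 genes by the Benjamini-Hochberg method, was under 0.05. Means are given ± SE with n = 2 arrays. The adjusted p of a gene's second or other probe comes from a separate limma fit, corrected over the 31587 probes that passed the filter. It was held to the same threshold but is not from the same test as the gene's own. The median SE over all genes was 0.28 for an effect against control and 0.40 for a difference between doses or times. Above background were 56.4% to 71.7% of spots in the LECT2 channel and 63.6% to 82.4% in the control channel, and of the members only Idi2 was dim on any array. The 2 arrays of a group correlated over all genes at r = 0.41 (low dose) and 0.72 (high dose) at 3.5 h, and at 0.35 and 0.62 at 48 h. The deposited value table disagrees with the scanner files recorded for the same samples: in 7 of its 8 columns the file that matches best is recorded under another sample. Which link is right is not given in the sources used here. The table with its own sample names is used, and with the files taken as recorded 0 members passed the threshold in any comparison. Few of all genes did so either, with 0 called against control at 3.5 h at either dose. At 48 h 50 genes were called at the low dose and 1 at the high dose. The main analysis called 1277 and 5721 genes (low and high dose, 3.5 h) and 45 and 2935 (48 h). Every call below thus rests on the use of the table's own sample names. The table's column for the low dose at 3.5 h, replicate 1, followed its best file least closely, at r = 0.91 over the brightest 20% of probes against 0.997 or above for every other column. Every array had the control in the same dye, so a dye bias of a probe that is equal on all arrays and a true effect of LECT2 cannot be told apart. RNA of a whole culture was measured, so fewer cells of a type and less RNA per cell cannot be told apart either.

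With the high dose at 48 h 9 of the 26 members fell and 0 rose, the other 17 not passing the threshold. Those that fell were Idi1, Idi2, Fdft1, Lss, Cyp51, Nsdhl, Dhcr7, Srebf2 and Insig1, while 6.93% of all genes tested fell and 4.31% rose. The median of the members was -0.80, against -0.01 over all genes. Both arrays lay below 0 for 18 members and above 0 for 3 (Mvd, Ggps1 and Insig2), where 35.9% of all genes had both arrays below 0. The members that fell did so by 1.83-fold (Lss) to 4.70-fold (Fdft1), apart from Idi2, whose LECT2 signal was dim. Every one of the 9 calls needed both arrays of the group. Testing every gene without a filter left 6 members past the threshold, without Idi1, Lss and Cyp51. With the scanner files matched to the columns and scaled only by their median, the median of all genes itself stood at -0.24 and 19 members fell, the 9 among them. Of all genes called 19.1% were then higher, against 38.3% in the main analysis.

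**Figure D1:**
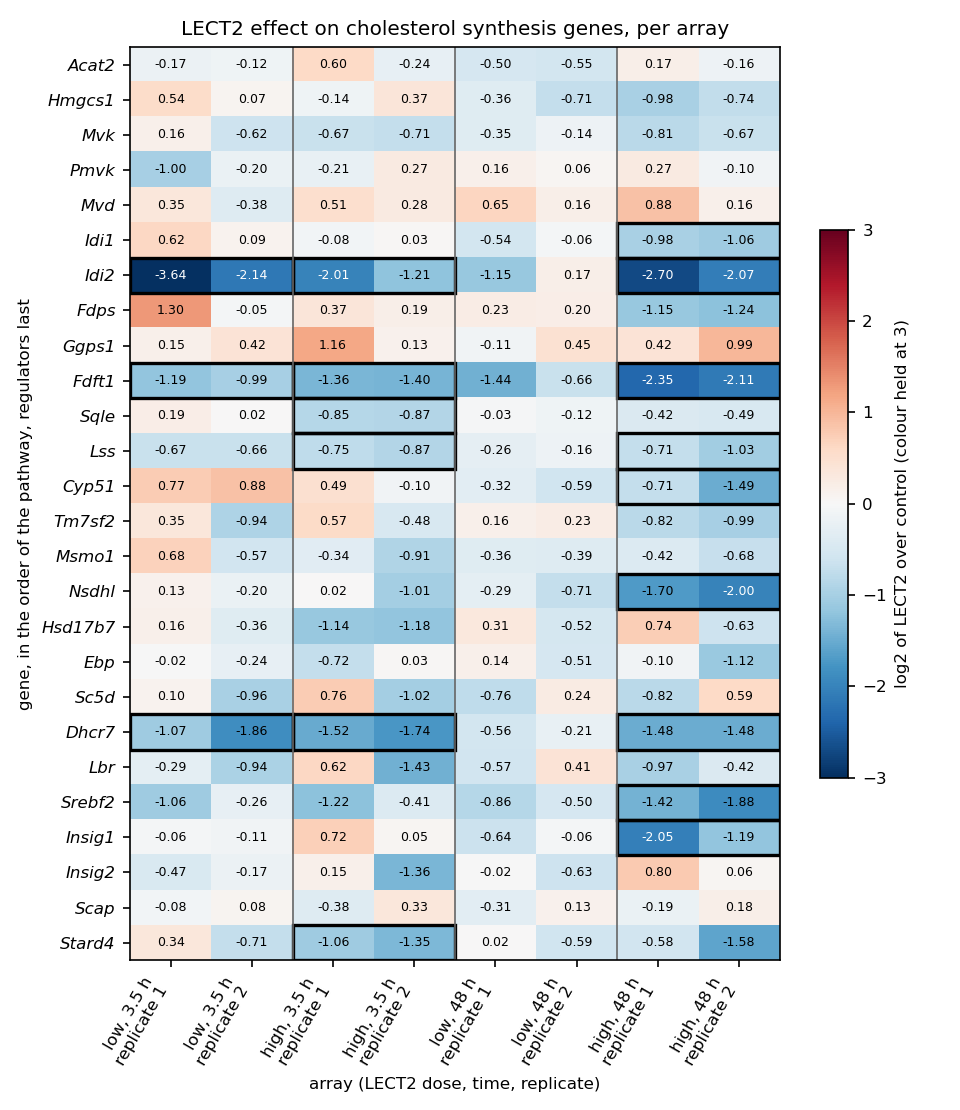
Heat map of log2 LECT2 over control for the 26 genes (rows, in the order of the pathway) on the 8 arrays (columns, grouped by dose and time), with each value printed and black boxes around pairs of arrays whose gene passed the threshold. All boxed pairs are blue (lower with LECT2), 3 at the low dose and 3.5 h, 6 at the high dose and 3.5 h, 0 at the low dose and 48 h and 9 at the high dose and 48 h.

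The first steps, which turn acetyl-CoA into mevalonate and then into activated isoprene units, held 0 members past the threshold at the high dose and 48 h. Acat2, which joins acetyl-CoA units, was measured at 0.17 and -0.16 on the arrays of the high dose at 48 h. Hmgcs1, which makes HMG-CoA and whose promoter is shown above, lay at -0.98 and -0.74, and its mean of -0.86 ± 0.24 did not pass the threshold (adjusted p = 0.0605). Mvk, the first kinase acting on mevalonate, was at -0.81 and -0.67 (adjusted p = 0.0896). Pmvk and Mvd, the next kinase and the decarboxylase, were at 0.08 ± 0.27 and 0.52 ± 0.28, Mvd with both arrays above 0.

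Idi1, which interconverts the 2 isoprene units, fell at the high dose and 48 h. Its arrays lay at -0.98 and -1.06 (mean -1.02 ± 0.23, adjusted p = 0.0340), against -0.54 and -0.06 at the low dose and 48 h, and the 4 arrays of 3.5 h lay between -0.08 and 0.62. The arrays of the high dose at 48 h lay below all 6 others. The call ended with the software ratio of the matched files (-1.02, adjusted p = 0.0537) and without a filter (adjusted p = 0.0596). Idi2, the paralog of Idi1 on the same chromosome 13, was low at both times. Its arrays read -3.64 and -2.14 at the low dose and 3.5 h, -2.01 and -1.21 at the high dose and 3.5 h, -1.15 and 0.17 at the low dose and 48 h, and -2.70 and -2.07 at the high dose and 48 h. It passed the threshold in all of these groups except the low dose at 48 h (adjusted p = 0.0158, 0.0402 and 0.0200). In the LECT2 channel Idi2 was not well above background on either array of the high dose at 48 h, so there it is at least 2.38-fold lower, with the dim channel raised to the faintest signal that counted as well above background on the array. At 3.5 h 1 of the 2 LECT2 arrays of each dose measured it. The second probe for Idi2, dimmer and above background on 5 of 8 arrays, read 0.27 and 0.34 in the low dose at 3.5 h and the high dose at 48 h (adjusted p = 0.70 and 0.541), so the probes for this gene disagree.

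Fdps and Ggps1 make the longer isoprenoids, farnesyl and geranylgeranyl diphosphate. Fdps read -1.15 and -1.24 at the high dose and 48 h (mean -1.19 ± 0.31) and missed the threshold narrowly (adjusted p = 0.0501), whereas the low dose gave 0.23 and 0.20. In the separate limma fit of all probes its adjusted p at the high dose and 48 h was 0.0499. Ggps1, which makes the lipid used to anchor small GTPases and not sterols, lay above 0 in every group mean, from 0.17 ± 0.31 to 0.71 ± 0.31, and passed the threshold in none. Its other probe, above background on all 8 arrays, had group means below 0 (-0.23 to -0.06) except at the high dose and 48 h (0.46). In the list of genes that use isoprenoids (protein prenylation, dolichol and ubiquinone, 12 of 12 tested), 0 fell or rose at 48 h. At the high dose and 3.5 h 1 of the 12 rose, where 10.2% of all genes did. That was Nus1, a subunit of the dolichol-making enzyme (0.93 ± 0.26, adjusted p = 0.0388).

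Fdft1, squalene synthase and the first enzyme committed to sterols, had the smallest adjusted p of the members. Its arrays lay at -1.19 and -0.99 at the low dose and 3.5 h, -1.36 and -1.40 at the high dose and 3.5 h, -1.44 and -0.66 at the low dose and 48 h, and -2.35 and -2.11 at the high dose and 48 h. All 8 arrays were below 0, and Fdft1 fell 4.70-fold at the high dose and 48 h (-2.23 ± 0.24, adjusted p = 0.00489). At 3.5 h it fell at both doses (adjusted p = 0.0499 and 0.00845), and at the low dose and 48 h it missed the threshold (-1.05 ± 0.24, adjusted p = 0.183). In the separate limma fit of all probes the low dose call at 3.5 h ended (adjusted p = 0.0503). A second, nearly as bright probe for Fdft1 gave -0.68 at the high dose and 48 h (adjusted p = 0.130), and 0.09 and -0.08 at the low and high dose of 3.5 h. The 2 probes therefore share a direction at 48 h but not a size, and the early fall rests on the brightest probe. With the probes of a gene averaged, Fdft1 did not pass the threshold at 3.5 h (-0.50, adjusted p = 0.234, and -0.73, adjusted p = 0.0507).

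Squalene is oxidised by Sqle and closed into lanosterol by Lss. Sqle fell at the high dose and 3.5 h, where its arrays read -0.85 and -0.87 (mean -0.86 ± 0.20, adjusted p = 0.0206), against 0.19 and 0.02 at the low dose. At 48 h it was at -0.42 and -0.49 with the high dose (adjusted p = 0.17). In the value table Lss was below 0 on all 8 arrays. It lay at -0.67 and -0.66 (low dose) and -0.75 and -0.87 (high dose) at 3.5 h, and at -0.26 and -0.16 (low) and -0.71 and -1.03 (high) at 48 h. In the scanner file matched to replicate 1 of the low dose at 3.5 h, however, Lss was higher with LECT2, at a log2 signal of 8.36 against 7.84 in the control. It fell at the high dose at both times (-0.81 ± 0.20, adjusted p = 0.0282, and -0.87 ± 0.20, adjusted p = 0.0358). Both calls of Lss ended with the matched scanner files, at -0.65 (adjusted p = 0.0630) and -0.59 (adjusted p = 0.130) after loess.

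The enzymes that turn lanosterol into cholesterol were split. Cyp51, the lanosterol demethylase, fell at the high dose and 48 h (arrays -0.71 and -1.49, mean -1.10 ± 0.27, adjusted p = 0.0397). At 3.5 h Cyp51 lay above 0 on 3 of 4 arrays, up to 0.88 at the low dose (mean 0.83 ± 0.27, adjusted p = 0.124). The matched files after loess gave -0.60 for Cyp51 at the high dose and 48 h and ended its call (adjusted p = 0.110). Nsdhl, which strips further methyl groups together with Msmo1 and Hsd17b7, fell 3.60-fold, with arrays at -1.70 and -2.0 (mean -1.85 ± 0.29, adjusted p = 0.0123). At the low dose and 48 h Nsdhl was at -0.29 and -0.71, and at 3.5 h it spread from 0.13 to -1.01, so that its 2 arrays of the high dose at 48 h lay below all the others. Its second probe, dimmer by far, read -0.49 (adjusted p = 0.323).

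Msmo1 and Tm7sf2 did not pass the threshold at the high dose and 48 h, though both arrays of each were below 0 (Msmo1 -0.42 and -0.68, Tm7sf2 -0.82 and -0.99). The probes of Hsd17b7 differed. At the high dose and 3.5 h its brightest probe read -1.14 and -1.18 and missed the threshold (-1.16 ± 0.36, adjusted p = 0.0551), with the other probe at -0.34 (adjusted p = 0.443). The brightest probe read 0.74 and -0.63 at the high dose and 48 h, and its other probe, of nearly equal brightness, -0.86 and -1.48 (mean -1.17, adjusted p = 0.0443). Ebp, the sterol isomerase, was at -0.10 and -1.12, and Sc5d, the desaturase that follows it, at -0.82 and 0.59, and neither passed the threshold. Lbr, a nuclear envelope protein with sterol reductase activity, was at -0.97 and -0.42 (mean -0.70 ± 0.48, adjusted p = 0.373), and its other probe at 0.49 (adjusted p = 0.483).

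Dhcr7, which makes cholesterol from 7-dehydrocholesterol in the last step, fell in 3 of the 4 groups. The arrays read -1.07 and -1.86 at the low dose and 3.5 h, -1.52 and -1.74 at the high dose and 3.5 h, -0.56 and -0.21 at the low dose and 48 h, and -1.48 and -1.48 at the high dose and 48 h. Every array was below 0, and only the low dose at 48 h stood above -1. The means were -1.46 ± 0.25 (adjusted p = 0.0211), -1.63 ± 0.25 (adjusted p = 0.00524), -0.39 ± 0.25 (adjusted p = 0.667) and -1.48 ± 0.25 (adjusted p = 0.0151). Dhcr7 kept both high dose calls under every alternative except the files as recorded and the runs without 1 of the group's own arrays.

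Among the regulators, Srebf2 and Insig1 fell at the high dose and 48 h while Scap lay close to 0. Srebf2, which encodes SREBP2 itself, was below 0 on all 8 arrays of its brightest probe. They read -1.06 and -0.26 (low dose) and -1.22 and -0.41 (high dose) at 3.5 h, then -0.86 and -0.50 (low) and -1.42 and -1.88 (high) at 48 h, and only the last pair passed the threshold (-1.65 ± 0.30, 3.14-fold, adjusted p = 0.0186). The other Srebf2 probe fell to the same side at the high dose and 48 h (-1.23 and -1.19, adjusted p = 0.0201). At 3.5 h the same probe pointed the other way, at 0.91 and 0.60 for the low dose (adjusted p = 0.108) and 0.75 and 1.33 for the high dose (adjusted p = 0.0184). The late fall of Srebf2 was thus seen by both probes, and the early direction depends on the probe.

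Insig1, which encodes a brake on SCAP and is itself a target of SREBP2, read -2.05 and -1.19 at the high dose and 48 h (mean -1.62 ± 0.29, 3.08-fold, adjusted p = 0.0184). At the low dose and 48 h it was at -0.64 and -0.06, and at 3.5 h at -0.06 and -0.11 (low) and 0.72 and 0.05 (high). The effect of the high dose on Insig1 was lower at 48 h than at 3.5 h by 2.01 on the log2 scale (SE 0.42, adjusted p = 0.0329). It was the only member to pass the threshold between times at the high dose, where 3.79% of all genes were lower and 4.53% higher at 48 h. Insig2, the related gene whose product also holds back SCAP, was at 0.80 and 0.06 with its brightest probe at the high dose and 48 h, and its other probe rose (1.22 and 0.85, mean 1.04, adjusted p = 0.0372). Those Insig2 probes stand for different listed transcripts. Scap lay between -0.38 and 0.33 on all 8 arrays. Stard4, which carries sterol between membranes, fell at the high dose and 3.5 h (-1.06 and -1.35, mean -1.21 ± 0.35, adjusted p = 0.0445). Its dimmer probe read -0.66 and 0.09 there (mean -0.29, adjusted p = 0.642), and the call ended with the probes averaged (-0.75, adjusted p = 0.175), with centred columns (adjusted p = 0.0508) and without a filter (adjusted p = 0.0711). At 48 h Stard4 was at -0.58 and -1.58 with the high dose (adjusted p = 0.0861), where the dimmer probe passed (-1.71, adjusted p = 0.0370).

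**Figure D2:**
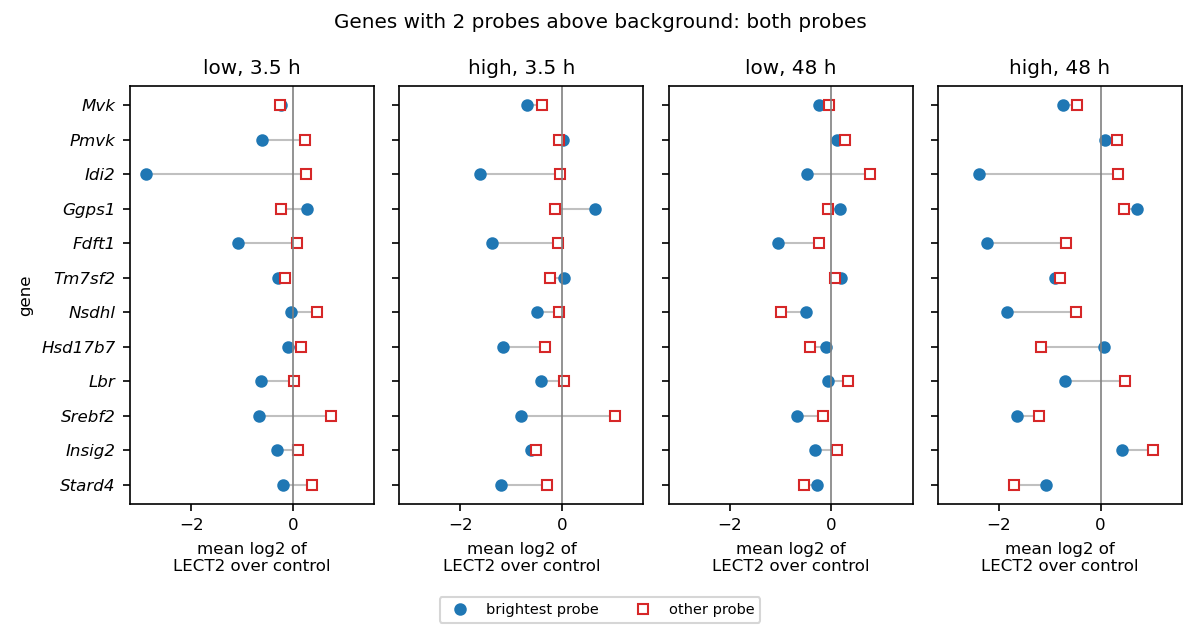
Mean log2 LECT2 over control of both probes for the 12 genes with 2 probes above background, in the 4 groups of dose and time. Blue circles are the brightest probe, used for the gene, and red squares the other probe. The probes lie on opposite sides of 0 for 10 genes at the low dose and 3.5 h, 5 at the high dose and 3.5 h, 4 at the low dose and 48 h and 3 (Idi2, Hsd17b7 and Lbr) at the high dose and 48 h.

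The plot of both probes shows how far single members depend on the probe chosen. Of the 12 members with 2 probes, 9 had both on the same side of 0 at the high dose and 48 h (6 below and 3 above), but only 2 of 12 at the low dose and 3.5 h. The 9 members that fell at the high dose and 48 h include 4 with a second probe. That probe was also below 0 for Fdft1, Nsdhl and Srebf2, and above 0 for Idi2.

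At 3.5 h fewer members fell, most of them among those that fell at 48 h. At the low dose 3 fell (Idi2, Fdft1 and Dhcr7) and 0 rose, against 2.14% of all genes lower and 2.74% higher, with a median of -0.14 over the members. At the high dose 6 fell (Idi2, Fdft1, Sqle, Lss, Dhcr7 and Stard4) and 0 rose, against 11.7% of all genes lower and 10.2% higher, with a median of -0.38. Leaving out replicate 1 of the low dose left 0 of its 3 calls and leaving out replicate 2 left 1 (Idi2). Leaving out either array of the high dose left 0 of its 6, and testing every gene without a filter left 3. All 3 low dose members are among the 9 of the high dose at 48 h. Between the early and the late response to the high dose 4 members were shared (Idi2, Fdft1, Lss and Dhcr7), which is 4 of the 6 early and 4 of the 9 late ones. With the files matched and scaled by their median only, the median of all genes moved to -0.11 (low dose) and -0.26 (high dose), 4 and 15 members fell, and 24.7% and 23.5% of all called genes were higher, against 56.1% and 46.4% in the main analysis.

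The low dose at 48 h left the pathway without a call. Of the 26 members 0 fell and 0 rose with limma, where 0.0191% of all genes were lower and 0.153% higher. An unadjusted p under 0.05 was reached by 1 member (Fdft1), beside 2647 of the 26123 genes. The median of the members was -0.27, and both arrays were below 0 for 14 members, with 29.0% of all genes having both arrays below 0. Median scaling of the matched files moved all genes to -0.15 and called 1 member, with 30.4% of called genes higher against 88.9%.

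**Figure D3:**
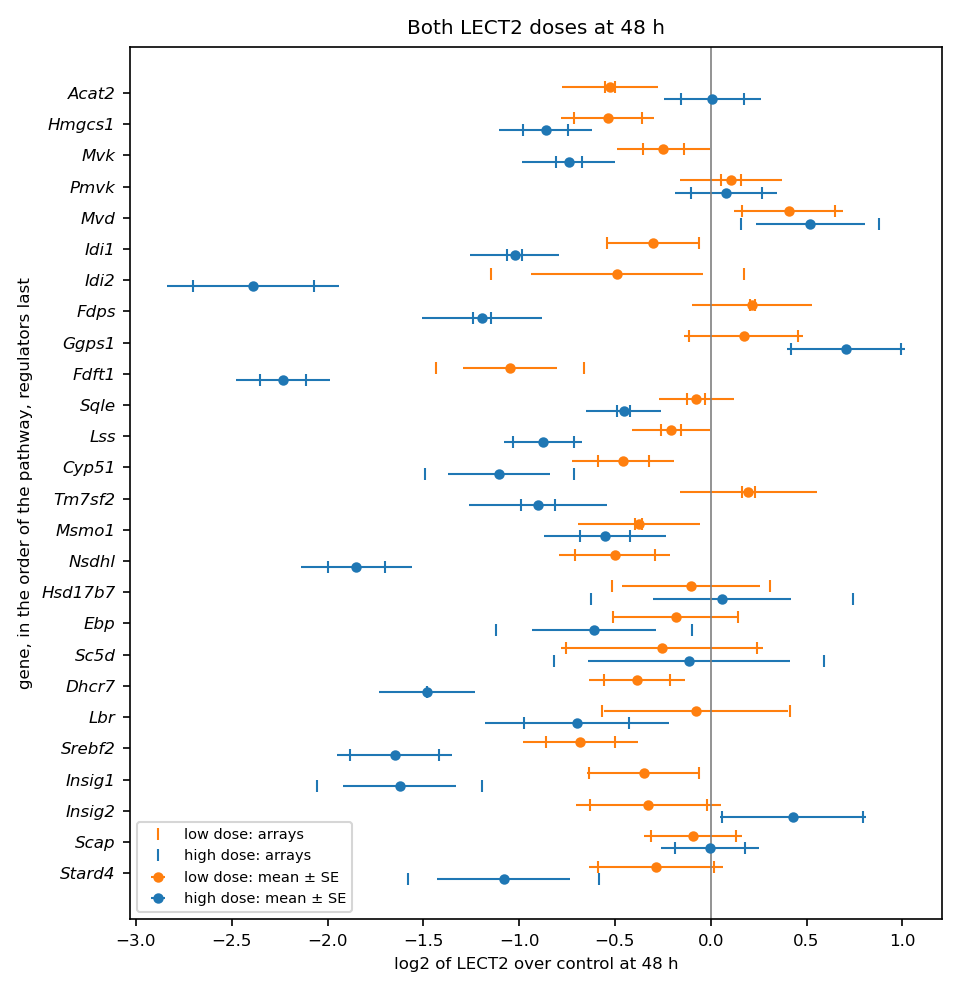
Log2 LECT2 over control at 48 h for each gene, low dose in orange and high dose in blue. Circles with bars are means ± SE from the fit and upright ticks are the 2 arrays. The high dose lies to the left of the low dose without overlap of the arrays for 15 of the 26 genes and to the right for 2 (Acat2 and Insig2).

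The 2 doses were then compared directly. At 48 h both high dose arrays lay below both low dose arrays for 15 members (Hmgcs1, Mvk, Idi1, Idi2, Fdps, Fdft1, Sqle, Lss, Cyp51, Tm7sf2, Msmo1, Nsdhl, Dhcr7, Srebf2 and Insig1), which held for 24.4% of all genes. They lay above for 2 (Acat2 and Insig2), against 18.9% of all genes, and overlapped for 9. The median difference of the members was -0.56 on the log2 scale, against -0.03 over all genes. In the test of the difference 0 members passed the threshold with limma, and 0% of all genes did in either direction (adjusted p of the members at least 0.341). At an unadjusted p under 0.05 there were 6 members, Idi2, Fdps (-1.41 ± 0.44), Nsdhl (-1.35 ± 0.41), Insig1 (-1.27 ± 0.42), Fdft1 (-1.18 ± 0.35) and Dhcr7 (-1.09 ± 0.35), and 2744 of the 26123 genes. For Idi2 no size is given, since its LECT2 signal was dim on both high dose arrays. For no member was a difference between the doses past the threshold. At 3.5 h the difference between doses likewise passed for 0 members and 0% of genes either way. Its only member at an unadjusted p under 0.05 was Sqle (-0.97 ± 0.28, adjusted p = 0.593), beside 2046 genes.

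Between times at the low dose, 0 members passed, with 0.0842% of all genes lower and 0.0153% higher at 48 h. An unadjusted p under 0.05 was reached by 4 members, beside 2715 of the 26123 genes. Of the 4 members, Idi2 and Dhcr7 (1.08 ± 0.35) were closer to 0 at 48 h and Cyp51 (-1.28 ± 0.38) and Hmgcs1 (-0.84 ± 0.34) lower. For Idi2 no size is given, since its LECT2 signal was above background on only 1 low dose array of 3.5 h. The second probe for Idi2 read 0.27 at 3.5 h and 0.76 at 48 h with the low dose. At the high dose the members next to Insig1 were Fdps (-1.47 ± 0.44, adjusted p = 0.0810), Nsdhl (-1.35 ± 0.41, adjusted p = 0.0820) and Cyp51 (-1.30 ± 0.38, adjusted p = 0.0742), all lower at 48 h and none past the threshold. Of the table's columns only those of 48 h equal a scanner file, so a step applied to one time and not the other is possible and was not tested. With all files matched and processed alike by loess, Insig1 was among 4 members lower at 48 h. The call of Insig1 ended without any filter (adjusted p = 0.0597) and without any single array of the high dose. The files as recorded gave 0.58 in the other direction.

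The control channel shows the same genes in cells that received no LECT2, at 3.5 h and 48 h. The control signals of low and high dose arrays of a time and replicate were averaged, since the labels do not say whether they share RNA, so n = 2 per time. Signals are on a log2 scale after quantile scaling and are compared only within a gene. Among the 3.5 h arrays, the control signals of the low dose, replicate 1, correlated least with the others (r = 0.963 to 0.974). Those others correlated with each other at r = 0.985 to 0.991. All of them enter the 3.5 h means. Of the 26 members 5 were higher at 48 h and 0 lower, against 4.02% of all genes higher and 3.80% lower, and the median of the members was 0.42.

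Idi1 read 8.97 and 10.1 at 3.5 h and 12.4 and 12.2 at 48 h, a rise of 2.74 ± 0.38 (adjusted p = 0.0222). Lbr rose from 9.49 and 10.5 to 13.1 and 12.7 (2.91 ± 0.36, adjusted p = 0.0199), and Sc5d from 10.8 and 11.7 to 14.1 and 13.3 (2.48 ± 0.39, adjusted p = 0.0248). Insig1 rose from 11.6 and 11.7 to 13.1 and 12.9 (1.37 ± 0.20, adjusted p = 0.0226), and Ggps1 from 9.49 and 9.73 to 10.6 and 10.4 (0.91 ± 0.20, adjusted p = 0.0473). In all 5 genes both late signals stood above both early ones. That order restates the calls, which rest on the same signals, and adds no support to them. Srebf2 was almost level (0.19 ± 0.19), Fdft1 was at 0.64 ± 0.31 and Dhcr7 at -0.64 ± 0.18, and none of these passed. Idi1 and Insig1 were thus higher in untreated cells at 48 h and lower with the high dose than in those untreated cells, and the comparisons share the control signals of 48 h.

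**Figure D4:**
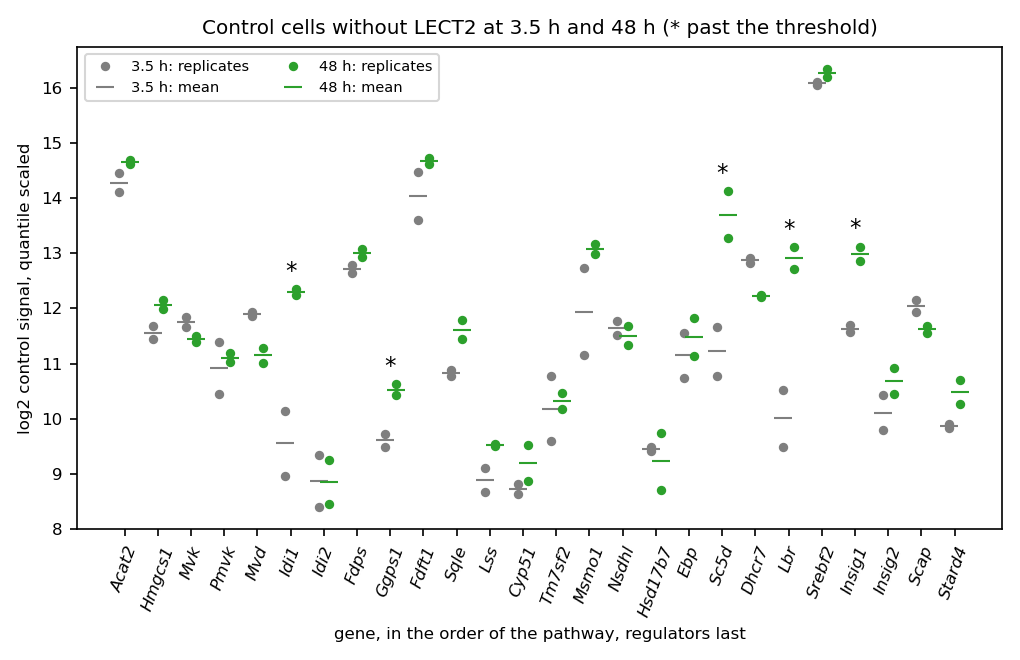
Log2 control signal after quantile scaling for each gene in cells without LECT2, at 3.5 h (grey) and 48 h (green). Dots are the 2 replicates, each the mean of 2 arrays, bars their mean, and asterisks mark the 5 genes past the threshold (Idi1, Ggps1, Sc5d, Lbr and Insig1). Heights of different genes come from different probes and are not to be compared.

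By the files that match the columns, all 3.5 h arrays lay on 1 slide and all 48 h arrays on the other. Time and slide thus cannot be told apart, in the control channel and in the differences of the LECT2 effect between times. In the control channel 0 members passed with the files as recorded. With median scaling 5 members passed again but not the same ones, Idi1, Sc5d and Lbr higher and Mvd (-1.40) and Dhcr7 (-1.43) lower, and 15.9% of all called genes were then higher against 51.4%. Markers of other cell types moved with time too. In the control channel 3 of 4 B cell markers were lower at 48 h, and their summed log2 signal went from 12.2 to 13.0 at 3.5 h to 10.8 to 11.1 at 48 h. The summed signal of 6 mesothelium and fibroblast markers went from 12.4 to 14.4 up to 14.7 to 15.5, with 1 (Lum) called higher. That of the mast cell markers went from 10.4 to 12.1 down to 9.03 to 9.38, with Cpa3 called lower, and that of the macrophage markers from 18.1 to 18.5 to 18.3 to 18.5, with 1 of 10 (Timd4) called lower (-1.52 ± 0.21) and a median of -0.38. That of the T and NK cell markers went from 11.4 to 12.1 down to 10.8 to 11.2, with 1 of 4 (Cd3g) called lower (-1.65 ± 0.33). Their part in the rise of the 5 members was not tested.

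The labelled cell type was checked against its markers. Of 11 macrophage markers 10 were tested, and all 10 were above background in the control channel of all 8 arrays. All 4 B cell markers and all 4 T and NK cell markers were so too, and none of the markers tested was dim on every array. Beside the late fall with the high dose, 1 macrophage marker fell (Gata6, -1.35 ± 0.21), 1 T and NK cell marker rose (Cd3g, 1.30 ± 0.25), and 0 of the B cell, mast cell, mesothelium and neutrophil markers passed. The summed macrophage signal on those 2 arrays was 18.5 and 17.9 with LECT2 against 18.4 and 18.3 in the control. The B cell sum was 10.4 and 10.6 against 10.8 and 11.1, and the mesothelium and fibroblast sum 14.2 and 14.6 against 14.7 and 15.5. Beside the early response, 2 macrophage markers fell at the high dose (Csf1r, -1.03 ± 0.31, and Lyz2, -2.01 ± 0.31), Cd14 rose (2.77 ± 0.65), Nkg7 of the T and NK cell list rose (1.12 ± 0.28), and Camp, a neutrophil marker, rose at both doses. At the low dose and 3.5 h Gata6 fell and Timd4 rose. Of the 6 mesothelium and fibroblast markers 0 passed at 3.5 h, with medians of -1.04 (low dose) and -0.77 (high dose). Their summed log2 ratio of LECT2 over control was -0.13 and -2.05 on the low dose arrays and -0.06 and -1.18 on the high dose arrays. The part of these cells in the members' changes was not tested.

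Other genes of sterol control were read from 4 lists, whose counts are to be read beside the shares of all genes. At the high dose 10.2% of all genes rose and 11.7% fell at 3.5 h, and 4.31% rose and 6.93% fell at 48 h. For the low dose these shares were 2.74% and 2.14% at 3.5 h, and 0.153% and 0.0191% at 48 h. Of 12 genes that process SREBP2 or sense sterol (the site proteases and lysosomal cholesterol transporters among them), 1 passed at 3.5 h. That was Npc1, which lets cholesterol out of lysosomes and fell at both doses (-1.10 ± 0.22, adjusted p = 0.0341, and -1.38 ± 0.22, adjusted p = 0.00564). At 48 h 0 of the 12 passed at either dose, and their median at the high dose was -0.04, where the members' median was -0.80. In the control channel 2 of the 12 were higher at 48 h and 0 lower, where 4.02% of all genes were higher and 3.80% lower. Pgrmc1, a haem-binding membrane protein, was among the 2 (1.76 ± 0.21).

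The 15 genes of fatty acid synthesis, which are governed mainly by the related factor SREBP1, moved in both directions. At the high dose and 48 h 1 rose and 2 fell (median -0.36), where 4.31% of all genes rose and 6.93% fell. Fasn, the fatty acid synthase, rose (0.98 ± 0.23, adjusted p = 0.0358), and Elovl6, an elongase, and Fads1, a desaturase, fell (-1.71 ± 0.30 and -1.15 ± 0.21). At the high dose and 3.5 h 3 rose (Fasn, Acacb and Fads2) and 4 fell, where 10.2% of all genes rose and 11.7% fell. Scd2 (-2.14 ± 0.58) and Elovl6 (-1.01 ± 0.30) were among those that fell. At the low dose 0 of the 15 passed at either time.

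Of the genes of oxysterols, LXR and cholesterol export 11 of 12 were tested. Ch25h, which makes 25-hydroxycholesterol, rose at 3.5 h at the low dose (4.71 ± 0.70, adjusted p = 0.0141) and the high dose (4.62 ± 0.70, adjusted p = 0.00511). It passed at neither dose at 48 h. At the low dose and 3.5 h 3 genes fell, Cyp27a1 (-1.53 ± 0.25), Nceh1 (-1.43 ± 0.23) and Abcg1 (-1.41 ± 0.29). With the high dose 2 rose at that time, Ch25h and the LXR gene Nr1h2 (0.77 ± 0.23), and 4 fell, namely Nceh1 (-2.35 ± 0.23), Abcg1 (-2.30 ± 0.29) and Soat1 (-1.77 ± 0.35), which hydrolyses cholesteryl esters, exports cholesterol and esterifies it, respectively, as did the mitochondrial hydroxylase Cyp27a1 (-1.53 ± 0.25). In the control channel Abcg1 was lower at 48 h (-2.16 ± 0.38). At the high dose and 48 h 2 of these were called, Cyp27a1 (-2.29 ± 0.25) and Nceh1 (-0.93 ± 0.23). The effects on Abcg1 (2.28 ± 0.41), Soat1 (2.15 ± 0.50) and Nceh1 (1.42 ± 0.33) were higher at 48 h than at 3.5 h at the high dose, whereas that on Insig1 was lower.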

How the data were processed

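The deposited values are in log2 units, and comparison with the scanner files showed them to be Cy5 (control) over Cy3 (LECT2), so their sign was turned. Per the file headers the authors read the slides with Agilent Feature Extraction 10.7.3.1, and the files hold spot intensity in both channels and a log10 ratio. How these values were made is not given in the sources used here. For the early time the sample titles say 3.5 h, which is used here, and the dye labels 3 h. Probes were kept (31587) where at least 2 of 8 arrays had them well above background in a channel. Symbols came from a table of RefSeq genes, and the brightest probe was used for each of 26123 genes (16730 with a symbol).

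A single fit in limma 3.58.1 (R 4.3.3, data.table version 1.17.8) gave a mean per group over all genes, with 4 residual degrees of freedom, and p-values were adjusted by Benjamini-Hochberg (0.05). The same model fitted to the 31587 probes as separate features gave the adjusted p of the members' other probes. Control intensity of the files matched to the columns was corrected by normexp (offset 50) and quantile scaled (2 residual degrees of freedom). The fit was tested on simulated data. Alternatives were the matched or recorded files, scaling, filters, probe averaging, variance trend, replicate block and leaving out arrays. Replicates of different groups shared a number, but their deviations did not correlate in every pair (r from -0.06 to 0.47), so the fit was not paired. The r of 0.47 was between the 2 doses at 48 h. Their control signals correlated at r = 0.995 and 0.996 within a replicate, so their effects against control may not be independent. A replicate block in limma also left every member short of the threshold for the dose difference at 48 h (lowest adjusted p = 0.167, Idi2). No columns were left unassigned to a sample. Every member was described in pathway order, with values per array for those past the threshold, and up to 3 called genes by size of each other list in a comparison, in places more. Not every call of these lists is reported here. The members and lists were chosen with earlier results of these data known, and the fold of a dim gene is a bound against the lowest signal well above background.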

Additional observations from a re-analysis of the deposited data

Results flagged for a closer look

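Insig1 stood out for a response that differed between times: at the high dose its effect was lower at 48 h than at 3.5 h by a difference of -2.01 on the log2 scale (SE 0.42, adjusted p from limma 0.0329), with both arrays above 0 at 3.5 h and both below 0 at 48 h. The difference was tested as a contrast in the fit over all genes, in which 3.79% of genes were lower at 48 h. The same difference at the low dose was -0.27 ± 0.42 (adjusted p = 0.907). By the files that match the columns, time and slide cannot be told apart in either difference.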

How the results depend on the processing

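With 2 arrays in a group, and a remaining array assumed to vary like the other groups, leaving out arrays gave between 0 and 1 members past the threshold for the low dose at 3.5 h, between 0 and 6 for the high dose at 3.5 h, between 0 and 9 for the high dose at 48 h, and between 0 and 2 for the time difference at the high dose. The scanner files as recorded gave 0 in each of these comparisons and 0 in the control channel, also with the slide as a block. There the Insig1 time difference turned to 0.58, and the control values of Ggps1, Sc5d, Lbr and Insig1 turned to -0.19, -0.24, -0.20 and -0.085, also with the slide as a block. Without a filter 3 members passed at the high dose and 3.5 h and 0 for the time difference at the high dose, where loess on the matched files gave 4 and probe averaging 2. Normexp with median centring, chosen after seeing the data, gave 15 and 19 members for the high dose at 3.5 h and 48 h, 1 for the low dose at 48 h and 2 for the time difference. With the replicate block 2 members passed for that difference (Insig1 and Nsdhl), 7 at the high dose and 3.5 h (Hsd17b7 added, adjusted p = 0.0256) and 11 at the high dose and 48 h (Fdps, adjusted p = 0.0414, and Stard4, adjusted p = 0.0305, added), and no named call was lost. The shared numbers are not shown to pair the arrays. Of all genes called between times at the low dose 26.8% were higher with loess on the matched files and 28.6% with the software's ratio, against 15.4%. Over all alternatives for single members 187 values kept their side of the threshold, 85 fell short of it in the same direction and 9 turned. The number of arrays limits the precision, and for Idi2 so does a LECT2 signal near background.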
